A study of Homo sapiens with 6 samples.

Results

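The ATP-binding cassette (ABC) genes were described here in H526 cells, a human small cell lung cancer line, before and after acquired resistance to onvansertib, an inhibitor of polo-like kinase 1. Members were taken by symbol, as protein-coding genes named ABC with 1 letter from A to G and a number, and 45 of the 62710 rows analysed met this rule. It leaves out *TAP1*, *TAP2* and *CFTR*, which belong to the superfamily under other names, and 22 pseudogene, noncoding and read-through rows. RNA was sequenced from 3 libraries of parental cells, numbered 1 to 3, and 3 libraries of onvansertib-resistant cells, numbered 7 to 9. Both groups were grown in RPMI-1640 with fetal bovine serum, and the resistant cells were selected in onvansertib raised from 10 to 75 nM over a year. The RNA of each group was harvested at 3 separate times, and the sources do not describe more than 1 resistant line, so that the p-values measure the spread between harvests and not between independent selections.

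ABC proteins bind and split ATP in paired nucleotide-binding domains, and most use the energy to move a substrate across a membrane. Some members of the B, C and G subfamilies pump drugs out of cells, and *ABCB1* (P-glycoprotein), *ABCC1* (MRP1) and *ABCG2* (BCRP) are the pumps best known from multidrug resistance in cancer. The A and G subfamilies hold exporters of sterols and phospholipids, the D subfamily imports fatty acids into peroxisomes or handles cobalamin in lysosomes, and *ABCC8* and *ABCC9* are regulatory subunits of potassium channels. The E and F proteins have no membrane domain and act on ribosomes.

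The value of 1 read in the normalized table gave a depth of about 25622200 to 28502400 reads in parental libraries and about 22302200 to 23252100 in resistant ones. A value of 3 reads was taken as the limit of detection and averaged 2.84 for parental and 3.17 for resistant libraries, which covers counting error only. Across the 16347 genes tested, log2 values correlated at 0.982 to 0.985 between libraries of a group and at 0.941 to 0.948 between groups, as a description across genes. The tuft cell factor *POU2F3* was at 25809 ± 1178 in parental and 27273 ± 535 in resistant cells (SD, n = 3 each). By the limma test described below, 17.8% of all genes tested were higher and 19.8% lower in resistant cells. Of the 7 tuft cell markers tested, 4 were higher (57.1%) and 2 lower (28.6%) in resistant cells. Of the 6 neuroendocrine markers 4 were tested, and these 4 were lower in resistant cells, with the summed value of the 6 between 11192 and 12564 in parental and between 4289 and 4993 in resistant libraries. Of the 8 markers of immune, stromal, endothelial and liver cells, *PTPRC*, *CD3E* and *PECAM1* were never above 3 reads. *COL1A1*, *COL1A2* and *VWF* were higher in resistant cells. *CD14* went the other way, with every resistant library below every parental library. Its log2 fold change of -0.44 did not pass the threshold (limma adjusted p = 0.386). *ALB* was too low for the test. The summed value of the 8 was 389 to 536 in parental and 852 to 1048 in resistant libraries. The part of these shifts in the ABC values was not tested. In bulk RNA, fewer cells that express a gene and less RNA per cell cannot be told apart.

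Of the 45 members, 25 were above 3 reads in all 6 libraries, 7 in some libraries and 13 in none. The limma test on log2(value + 1) was applied to the 26 members whose 6 libraries averaged 10 or more. At a Benjamini-Hochberg adjusted p under 0.05, 9 of the 26 differed, 5 higher and 4 lower in resistant cells. This share of 34.6% lies near the 37.7% of all genes tested that passed the same threshold, made up of 17.8% of all genes tested that were higher and 19.8% that were lower. Parental and resistant values were fully separated for 12 of the 26 members, including all 9 that differed, or 46.2% against 49.9% of all genes tested. Among the tested members the median log2 fold change (log2FC) was -0.01, the median absolute log2 fold change was 0.22 and the median SD within a group was 0.15 on the same scale, against 0.00, 0.30 and 0.15 over all genes tested. Solute carriers, the other large superfamily of membrane transporters, gave 88 of 240 tested genes past the threshold (36.7%). The higher members included *ABCC8*, *ABCC6*, *ABCD4* and *ABCG2*, the last of which passed the filter on low values only through the resistant libraries. The lower members were *ABCA1*, *ABCB8*, *ABCB9* and *ABCF2*. For 1 member alone, exact permutation of the 3 and 3 libraries (two-sided) has a smallest possible p of 0.10, and each of the 9 had that p.

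**Figure D1:**
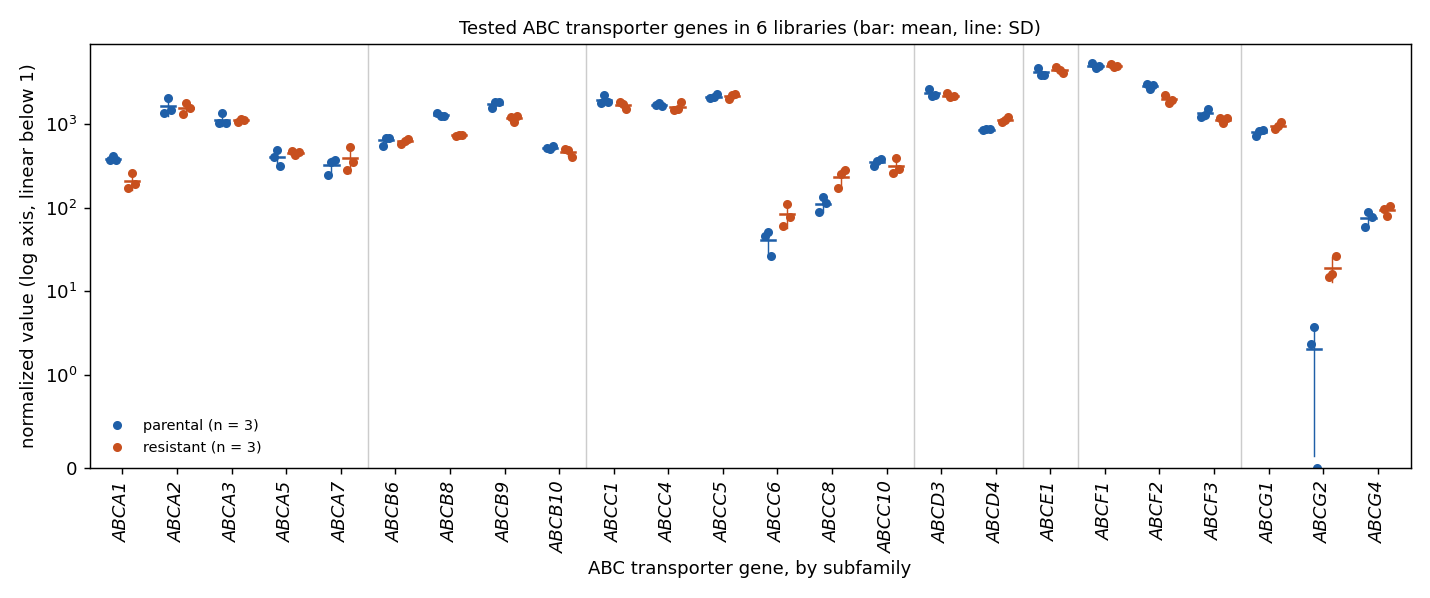
Normalized value (log axis, linear below 1) of 24 of the 26 tested ABC genes in each of the 3 parental and 3 resistant libraries, ordered by subfamily. Points are libraries, bars are means and vertical lines are the SD. *ABCG2* has the lowest values, at most 3.78 in parental libraries and at least 14.9 in resistant libraries, and *ABCF1* the highest single value, at 5367.

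The genes of translation factors held 4 of the 5 highest levels per length in parental cells. Per kilobase of the longest transcript, *ABCF1*, a translation initiation factor, had rank 1 of 45, at 1459 in parental and 1449 in resistant cells. *ABCE1*, which recycles ribosomes, had rank 2, at 1071 in parental and 1148 in resistant cells. With the median transcript length of each gene in place of the longest, *ABCE1* had rank 1 and *ABCF1* rank 4 in parental cells, so the order of near levels depends on the length used. *ABCG2* was the lowest of the tested members on the scale per kilobase, at 0.420 in parental and 3.94 in resistant cells. For comparison, *ABCC1* was at 295 in parental and 256 in resistant cells on that scale.

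The regions upstream of 3 of the members that differed are shown because they are the best known drug pump among the 9 and the 2 members with the most negative log2 fold change. RefSeq start sites on GRCh38.p14 were at hand for 35 of the 45 members, and the 250 bases before a start are printed 5′ to 3′ on the strand of the gene. For *ABCG2* the middle one of 5 annotated starts was taken (chr4:88158910-88159159, minus strand), and capitals mark an E-box, CACGTG, that begins 121 bases before the start. For *ABCA1* (chr9:104928156-104928405, minus strand) capitals mark a DR4 element, the paired half-site that liver X receptors are known to bind, and the window holds it on the opposite strand. For *ABCB8* (chr7:151028200-151028449, plus strand) capitals mark CCAAT boxes that begin 131, 90 and 52 bases before the start.
ABCG2: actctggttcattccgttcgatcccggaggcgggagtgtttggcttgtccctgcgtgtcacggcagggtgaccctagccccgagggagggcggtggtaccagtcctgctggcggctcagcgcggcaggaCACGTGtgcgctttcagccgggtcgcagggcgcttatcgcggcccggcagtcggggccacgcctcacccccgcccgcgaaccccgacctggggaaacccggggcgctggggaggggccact
ABCA1: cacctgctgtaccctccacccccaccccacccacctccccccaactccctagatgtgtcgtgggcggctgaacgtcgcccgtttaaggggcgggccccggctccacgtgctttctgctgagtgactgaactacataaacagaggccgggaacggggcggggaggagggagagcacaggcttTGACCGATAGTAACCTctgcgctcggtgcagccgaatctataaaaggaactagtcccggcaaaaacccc
ABCB8: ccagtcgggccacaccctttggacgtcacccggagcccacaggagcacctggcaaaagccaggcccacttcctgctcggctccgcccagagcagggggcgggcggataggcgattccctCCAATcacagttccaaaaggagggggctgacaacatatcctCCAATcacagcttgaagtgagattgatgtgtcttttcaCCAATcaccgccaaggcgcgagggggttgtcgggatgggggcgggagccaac
On either strand, a DR4 match was found in 0.0797% of 35116 windows of this length over all genes and in 1 of the 53 windows of the 35 members, that of *ABCA1*. An E-box was found in 6.34% of all windows and in 9 of the 53. The printed window of *ABCA1* also holds CACGTG, left in lower case because only the named element was marked for each gene. A CCAAT box was found in 32.0% of all windows and in 11 of the 53, and the window of *ABCB8* holds 3. Such matches describe the letters of the reference genome and not the binding of a factor.

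The comparison of parental and resistant cells asks, for the drug pumps, whether transcripts of efflux transporters differ after selection with onvansertib. Of 14 ABC genes listed as drug pumps, 8 were tested, of which 2 were higher, 0 were lower and 6 did not pass the threshold. The share past it was 25%, against 37.7% of all genes tested, and 1 of the 2 is *ABCG2*, which the filter admitted only through the resistant libraries. Their median log2 fold change was -0.05, against 0.00 over all genes tested. *ABCB1*, which encodes P-glycoprotein, was listed at 0 in all 6 libraries. *ABCB5* was also at 0 in all 6. *ABCC3* was at 0 in all 3 parental libraries and at 0.93 to 2.50 in resistant cells, under the value of 3 reads throughout. Transcripts of these 3 pumps did not pass the limit of detection at this depth in either group. A count of 0 still allows 3 reads in a library, which applies to *ABCB1*, *ABCB5* and the parental libraries of *ABCC3*. In resistant cells *ABCC3* had values above 0 but under that limit. *ABCB4*, the phosphatidylcholine exporter beside *ABCB1* on chromosome 7, was above 3 reads in parental library 2 only, at 15.1, and at most 2.18 in the other libraries. *ABCC2* (MRP2) was at 5.22, 2.69 and 5.89 in parental cells and at 3.59, 0.48 and 0 in resistant cells. *ABCC11* was above 3 reads only in resistant library 7, at 6.64. Their means were too low for the test, and the groups overlapped for all 3.

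*ABCG2* (ENSG00000118777.12, GRCh38 chromosome 4, 88090150 to 88231628) was the member with the largest log2 fold change. It was at 2.31, 3.78 and 0 in parental libraries 1, 2 and 3. In resistant libraries 7, 8 and 9 it was at 14.9, 16.2 and 26.3. All 3 resistant libraries were above all 3 parental libraries, 2 of which were under the value of 3 reads. The mean rose from 2.03 ± 1.91 to 19.1 ± 6.24 (SD, n = 3), with log2FC 2.96 (SE 0.66, limma adjusted p = 0.00602). In reads, *ABCG2* was at about 2.60, 3.90 and 0 in parental libraries and at about 14.2, 15.5 and 24.4 in resistant ones. Rounded to whole sums of 7 and 54 reads, the ratio was 8.60, against 9.40 for the ratio of mean values. The 95% interval for counting error was 3.90 to 22.4, and it is approximate because whole reads were not recovered. The size of the change depends on the pseudocount, with log2FC 4.25 at 0.1 and 1.27 at 10 (adjusted p = 0.0242 and 0.00392 by limma, and up to 0.0289 over the 16 alternatives of *ABCG2*). *ABCG2* passed the filter on low values only through the resistant libraries, so its p-values are given as a description. It left the test with the minimum raised to 50 or when resistant library 7, 8 or 9 was left out and the filter applied anew. With the tested genes kept, its log2 fold change was 3.11, 3.05 and 2.72 without resistant library 7, 8 and 9 (limma adjusted p = 0.0161, 0.0207 and 0.0289). The 5 annotated genes and pseudogenes that overlap it were listed at 0 in all 6 libraries.

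**Figure D2:**
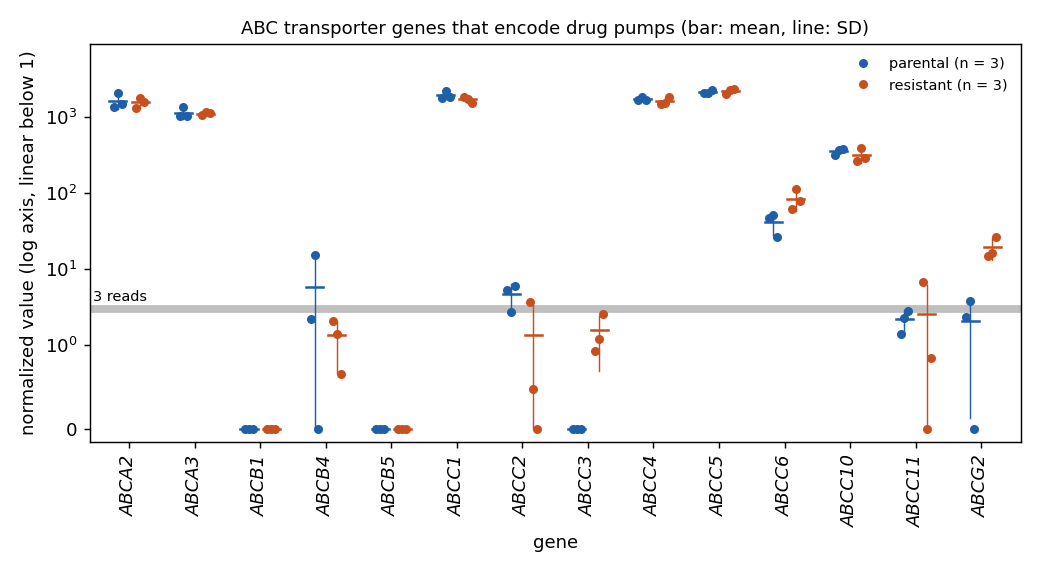
Normalized value (log axis, linear below 1) of the 14 ABC genes listed as drug pumps in each library, with means (bars) and SD (vertical lines) of 3 libraries per group. The grey band is the value of 3 reads. *ABCB1* and *ABCB5* are at 0 in all 6 libraries, *ABCG2* lies above the band in the 3 resistant libraries, and *ABCC1*, *ABCC4* and *ABCC5* lie between 1471 and 2309 in both groups.

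*ABCC6* (ENSG00000091262.17, chromosome 16, 16149565 to 16223522), a transporter of liver and kidney known from a disorder of tissue calcification, was at 45.8, 51.5 and 26.1 in parental libraries and at 60.4, 110 and 78.2 in resistant ones. The groups did not overlap, though resistant library 7 lay close to parental library 2. The log2 fold change was 1.01 (SE 0.32, limma adjusted p = 0.0325). The call was lost without parental library 3, resistant library 8 or resistant library 9 (limma adjusted p = 0.107, 0.131 and 0.0678). It was also lost without the filter, with quantile normalization and without the trend (limma adjusted p = 0.0534, 0.0591 and 0.0656). *ABCC6* has partial copies on the same chromosome whose reads the quantification could have split. One noncoding row of the copy *ABCC6P1* (ENSG00000291057.1) had means of 2.26 ± 1.66 in parental and 23.8 ± 18.3 in resistant cells (SD, n = 3). That row passed the filter on low values only through the resistant libraries, so its call as higher is a description. Its resistant values were widely spread, with the highest in library 9. A noncoding row of the copy *ABCC6P2* (ENSG00000290943.1) had means of 7.05 in parental and 18.6 in resistant cells. The groups overlapped for *ABCC6P2*, and it did not pass the threshold. How reads were split between *ABCC6* and its copies was not tested, so the value of *ABCC6* is uncertain.

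The drug pumps with high values did not pass the threshold. *ABCC1* was at 1785, 2216 and 1827 in parental libraries and at 1812, 1741 and 1520 in resistant ones, and its groups overlapped. The log2 fold change was -0.20, with a 95% interval from -0.42 to 0.03 (limma adjusted p = 0.152). *ABCC5* (MRP5), a pump of cyclic nucleotides, had means of 2136 ± 129 in parental and 2184 ± 154 in resistant cells (SD, n = 3), and its interval on the log2 scale ran from -0.14 to 0.21. *ABCC4* (MRP4) had means of 1711 ± 73.6 and 1604 ± 205 (SD, n = 3), with an interval from -0.31 to 0.11. *ABCC10* (MRP7) had an interval from -0.55 to 0.18. *DLK2*, which overlaps *ABCC10* on the opposite strand, had means of 24.4 in parental and 123 in resistant cells. Whether reads of *DLK2* and *ABCC10* were fully separated was not tested. The interval of *ABCA2*, a lysosomal transporter, ran from -0.41 to 0.27, and that of *ABCA3*, which loads surfactant lipid in the lung, from -0.27 to 0.22. For these 6 pumps every interval excludes a change of 1 on the log2 scale, in either direction. The summed value of the 14 pumps overlapped between groups, at 8253 to 9940 in parental and 8009 to 8920 in resistant libraries.

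In the A subfamily, 5 of 12 members were tested, with 1 lower in resistant cells and a median log2 fold change of -0.02. *ABCA1* (ENSG00000165029.17, chromosome 9, 104781006 to 104928155) exports cholesterol and phospholipid to apolipoproteins. It was at 373, 410 and 372 in parental libraries and at 173, 262 and 192 in resistant ones. Every resistant library was below every parental library, and the mean fell from 385 ± 21.6 to 209 ± 47.1 (SD, n = 3), with log2FC -0.90 (SE 0.16, limma adjusted p = 0.0018). *ABCA5* and *ABCA7*, a phospholipid exporter related to *ABCA1*, had log2FC values of 0.21 and 0.22 and did not pass the threshold (limma adjusted p = 0.326 and 0.479). On chromosome 17, 5 members lie side by side from 68867289 (*ABCA8*) to 69327244 (*ABCA5*), and *ABCA5* alone was above 3 reads in all 6 libraries, with means of 401 and 457 in parental and resistant cells. *ABCA6*, *ABCA8* and *ABCA9* were never above 3 reads, and *ABCA10* reached 8.75 in resistant library 8 and 3.95 in parental library 2. *ABCA4*, the transporter of retinal photoreceptors, and *ABCA13* were never above 3 reads, and *ABCA8* and *ABCA13* were at 0 in all 6 libraries. *ABCA12*, which loads lipid in skin, was above that value in resistant library 7 only, at 3.15.

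The B subfamily had 9 members, of which 5 were tested, 1 higher and 2 lower in resistant cells, with a median log2 fold change of -0.17. *ABCB8* (ENSG00000197150.13, chromosome 7, 151028422 to 151047782), a transporter of the mitochondrial inner membrane, had the smallest p of all members. It was at 1369, 1252 and 1247 in parental libraries and at 728, 735 and 734 in resistant ones. The groups were far apart, and the mean fell from 1289 ± 69.0 to 732 ± 3.63 (SD, n = 3), with log2FC -0.81 (SE 0.08, limma adjusted p = 3.83e-05). *ABCB9* (ENSG00000150967.19, chromosome 12, 122920951 to 122981649), a lysosomal peptide transporter, was at 1576, 1818 and 1839 in parental libraries and at 1215, 1069 and 1265 in resistant ones. No resistant value reached the lowest parental one, and the log2 fold change was -0.56 (SE 0.09, limma adjusted p = 0.00103). *ARL6IP4* and *OGFOD2*, which overlap *ABCB9* on the opposite strand, had log2FC values of -0.80 and -0.56, and the sources used here do not state that the counting used strand, so reads of these genes and *ABCB9* may not be fully separated.

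*ABCB10*, also of mitochondria, and *ABCB6* had log2FC values of -0.17 and -0.01 and did not pass the threshold. *ABCB11*, the bile salt export pump of liver, was never above 3 reads.

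The C subfamily had 11 members, of which 6 were tested, 2 higher and 0 lower, with a median log2 fold change of -0.03. *ABCC8* (ENSG00000006071.16, chromosome 11, 17392498 to 17476894) encodes SUR1, the sulfonylurea receptor of the potassium channel of pancreatic beta cells and neurons. It was at 87.7, 134 and 114 in parental libraries and at 172, 251 and 284 in resistant ones. All 3 resistant libraries were above the parental ones, and the mean rose from 112 ± 23.1 to 235 ± 57.6 (SD, n = 3), with log2FC 1.05 (SE 0.23, limma adjusted p = 0.00468). The pore subunit that pairs with it, *KCNJ11*, also on chromosome 11, rose from 1218 ± 47.6 to 1574 ± 232 (SD, n = 3), with log2FC 0.36 (limma adjusted p = 0.0237). The other pair was nearly absent, since *ABCC9* was never above 3 reads and *KCNJ8* had means of 1.64 and 2.70, too low for the test. *ABCC12* was never above 3 reads.

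In the D subfamily 3 of 4 members were tested, with 1 higher. *ABCD4* (ENSG00000119688.21, chromosome 14, 74285269 to 74303055), needed for the release of cobalamin from lysosomes, was at 840, 875 and 865 in parental libraries and at 1052, 1105 and 1212 in resistant ones. Every resistant library was above every parental library, with log2FC 0.38 (SE 0.08, limma adjusted p = 0.00511). Its cobalamin partner *MMACHC* rose from 700 ± 20.9 to 1001 ± 63.0 (SD, n = 3), with log2FC 0.51, whereas the membrane partner *LMBRD1* had log2FC -0.11 and did not pass the threshold (limma adjusted p = 0.471). *ABCD3*, a peroxisomal transporter, had log2FC -0.08 and did not pass the threshold (limma adjusted p = 0.481). Its relative *ABCD2* was at 0 in all 3 parental libraries and at 4.17, 1.04 and 1.08 in resistant cells, above 3 reads in resistant library 7 only.

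All 4 members of the E and F subfamilies were tested, and *ABCF2* differed. *ABCF2* (ENSG00000033050.9, chromosome 7, 151211484 to 151227205) was at 3033, 2622 and 2928 in parental libraries and at 2226, 1802 and 1964 in resistant ones. The highest resistant library lay below the lowest parental one, and the log2 fold change was -0.52 (SE 0.09, limma adjusted p = 0.00144). A read-through row that shares exons with it, *ABCF2-H2BK1*, fell from 751 ± 159 to 498 ± 89.1 (SD, n = 3), and the sum of both rows fell from 3612 ± 370 to 2496 ± 269 (SD, n = 3). Both rows and their sum were lower, and how the quantification split the shared reads was not tested. *ABCF3*, whose groups did not overlap, had log2FC -0.24 and did not pass the threshold (limma adjusted p = 0.095). *ABCF1* and *ABCE1* had log2FC values of -0.01 and 0.10. *GCN1*, a ribosome-bound protein on the list of partners, fell from 10454 ± 633 to 7733 ± 691 (SD, n = 3).

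The G subfamily had 5 members, of which 3 were tested, with *ABCG2* higher. *ABCG1* (ENSG00000160179.19, chromosome 21, 42199689 to 42297244), which passes cholesterol to high-density lipoprotein, was at 721, 829 and 840 in parental libraries and at 869, 941 and 1047 in resistant ones. The groups did not overlap, but the log2 fold change of 0.26 did not pass the threshold (SE 0.10, limma adjusted p = 0.0698). It passed with upper quartile scaling and with quantile normalization (limma adjusted p = 0.0385 and 0.0468). *ABCG4*, its close relative of brain, had log2FC 0.32 (limma adjusted p = 0.304). *ABCG5* and *ABCG8*, which form the sterol exporter of gut and liver, were never above 3 reads.

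Each tested member was set beside the 50 tested genes nearest to it on its chromosome. *ABCB8* and *ABCF2* lie 164 kb apart near the end of chromosome 7, where the 50 genes around each had medians of -0.52 and -0.52 and 29 of the 50 were lower. The log2 fold change of *ABCF2* equalled the median of its neighbours within 0.01, while *ABCB8* lay below 44 of its 50. *ABCB9* on chromosome 12 had log2FC -0.56, and its 50 neighbours a median of -0.56 with 35 lower and 0 higher. For *ABCA1* on chromosome 9 the neighbours, from 98.1 to 111.6 Mb, had a median of -0.70, with 28 lower and 4 higher. *ABCD4* on chromosome 14 lay among neighbours with a median of 0.45, 31 of them higher.

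*ABCG2*, *ABCC8* and *ABCC6* stood apart from their surroundings. The log2 fold change of *ABCG2* exceeded that of all 50 of its neighbours, which had a median of 0.25. *ABCC8* exceeded 46 of its 50 neighbours, with a median of 0.02, and *ABCC6* 47 of 50, with a median of 0.05. *ABCG1* lay the other way, below 43 of its 50 neighbours on chromosome 21, whose median was 1.19 and of which 39 were higher and 0 lower in resistant cells. In all, 5 of the 9 members past the threshold lay between the quartiles of their neighbours, as did 18 of the 26 tested.

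With the median of the neighbours taken off each gene, 5 of the 26 members passed the threshold (19.2%), against 32% of all genes tested. *ABCG2*, *ABCC8* and *ABCC6* stayed higher, with log2 fold changes of 2.71, 1.04 and 0.96 (limma adjusted p = 0.0126, 0.00672 and 0.0453). The p-value of *ABCG2* is a description, since *ABCG2* passed the filter on low values only through the resistant libraries. *ABCB8* stayed lower at -0.30 (limma adjusted p = 0.0141). The call of *ABCA1* was lost at -0.20, and those of *ABCB9*, *ABCF2* and *ABCD4* were lost at 0.00, 0.00 and -0.06 (limma adjusted p = 0.361, 0.976, 0.999 and 0.613). *ABCG1* was lower than its surroundings by 0.93 on the log2 scale, a centred log2 fold change of -0.93 (limma adjusted p = 0.000206).

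**Figure D3:**
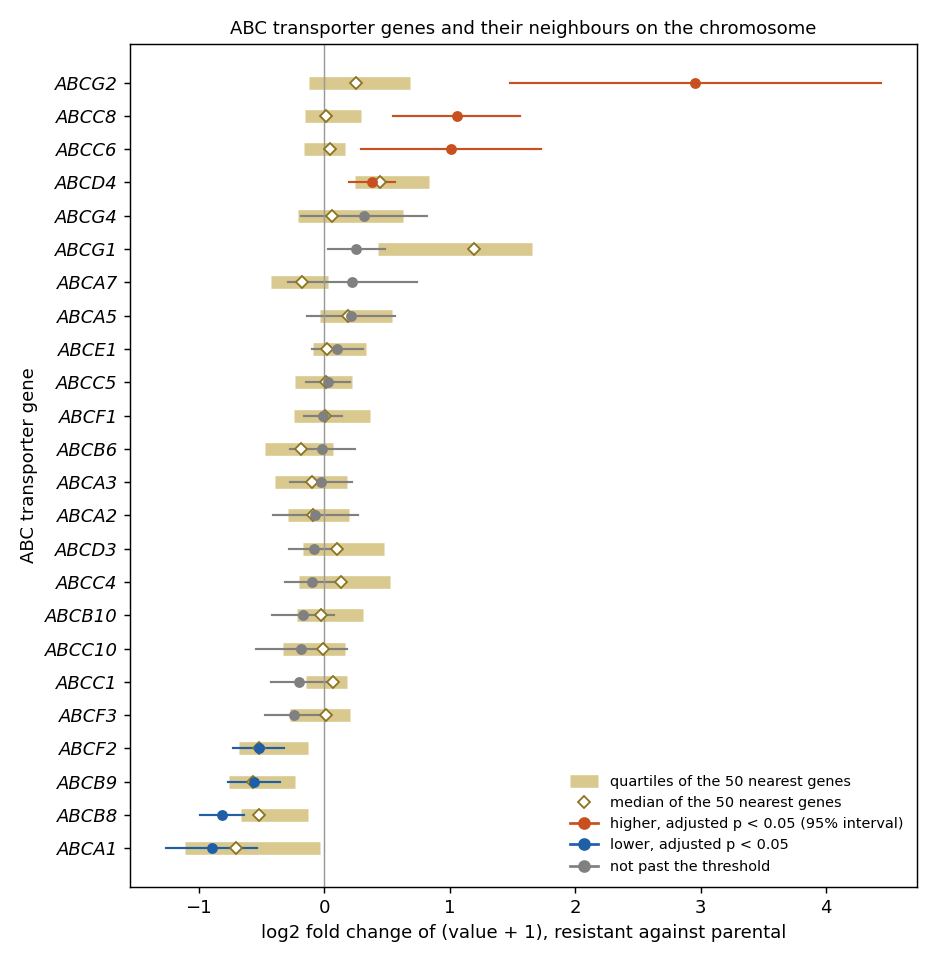
Log2 fold change of (value + 1), resistant against parental, of 24 of the 26 tested ABC genes (circles, with 95% intervals), beside the median (diamonds) and quartiles (bands) of the 50 nearest tested genes on the same chromosome. *ABCG2*, *ABCC8* and *ABCC6* lie to the right of their bands, *ABCB8* and *ABCG1* to the left of theirs, and *ABCB9*, *ABCF2*, *ABCD4* and *ABCA1* lie inside.

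The superfamily members named outside the symbol rule include both subunits of the transporter that feeds peptides to MHC class I. *TAP1* was at 1384 ± 30.6 in parental and 2308 ± 347 in resistant cells (SD, n = 3), with log2FC 0.73 (limma adjusted p = 0.000335). *TAP2* had log2FC 0.38 (limma adjusted p = 0.0274), though its groups overlapped. Their partner *TAPBP*, which holds MHC class I at the transporter, rose from 752 ± 101 to 1426 ± 149 (SD, n = 3). *CFTR* was never above 3 reads.

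Of 26 genes listed as regulators of ABC genes, 23 were tested, with 4 higher and 7 lower in resistant cells and a median log2 fold change of 0.02. These are 17.4% and 30.4% of those tested, against 17.8% and 19.8% of all genes tested. *SREBF1*, a sterol and lipid factor, fell from 5996 ± 672 to 3031 ± 424 (SD, n = 3), with log2FC -0.99. *SP1*, a factor of GC-rich promoters, fell from 3238 ± 58.8 to 2253 ± 128 (SD, n = 3). *YBX1*, a Y-box protein, fell from 88439 ± 640 to 66811 ± 1186 (SD, n = 3), and the nuclear receptor *ESRRA* from 2186 ± 143 to 1553 ± 46.7 (SD, n = 3). These 4 had the smallest p of the list, and the following were picked for their role after their values were seen. The liver X receptor *NR1H2* fell by 0.37 on the log2 scale, while the other liver X receptor, *NR1H3*, had log2FC 0.19 and did not pass the threshold (limma adjusted p = 0.417). *NR1I2*, the xenobiotic receptor PXR, was listed at 0 in all 6 libraries.

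Of 20 genes listed as partner proteins of ABC transporters, 17 were tested, with 6 higher and 1 lower and a median log2 fold change of 0.08. These are 35.3% and 5.88% of those tested, against 17.8% and 19.8% of all genes tested. Apart from *TAPBP* and *MMACHC*, the smallest p values belonged to *EIF2AK4* and *APOE*. *APOE*, which takes up cholesterol exported by *ABCA1* and *ABCG1*, rose from 651 ± 127 to 1516 ± 143 (SD, n = 3), with log2FC 1.23. *EIF2AK4*, the kinase that *GCN1* activates, rose from 2136 ± 74.1 to 3475 ± 152 (SD, n = 3), with log2FC 0.70. *KCNJ11*, *KCNJ8*, *LMBRD1* and *GCN1*, named with the members they act with, were also picked after their values were seen.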

How the data were processed

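RNA of 3 parental and 3 resistant libraries was compared. Per the study's methods and the submitters' processing notes, the authors trimmed reads with Trimmomatic 0.38, aligned and quantified them with RSEM 1.3.1 and STAR on GRCh38 with Gencode v43, and normalized the counts with DESeq2 1.30.0. For each library the deposited table gives every gene a normalized signal, and no replicates were pooled. The value of 1 read varied between genes and 29.9% to 56.7% of low values were whole multiples of it (within 0.02), so whole reads were not recovered and the count test of the study's methods was not used. After 47 second copies of pseudoautosomal genes were left out, 62639 of 62710 rows were named from Gencode v44, which also gave positions and transcript lengths.

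limma 3.58.1 in R 4.3.3, with its trend option, compared log2(value + 1) of the 16347 genes that averaged 10 or more, and p-values were adjusted over them (Benjamini-Hochberg, 0.05). Fold changes on this scale understate changes of low values. The steps were tested on simulated data. The fit was repeated with a pseudocount of 0.1 or 10, without the filter, with genes averaging 50 or more, and under upper quartile scaling, quantile normalization, no trend, centring on the 50 nearest genes, each library left out, and, chosen after seeing the data, each library left out with the tested genes kept. Some genes are counted but not reported here by name. Named genes were otherwise all members past the threshold, all drug pumps, the undetected members, up to 2 other tested members per subfamily and the 4 genes with the smallest p of each associated list, beside a few that the text marks as picked later. The members and lists were chosen with earlier results of these data known. Figures used Python 3.11.15 and matplotlib 3.10.9.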

Additional observations from a re-analysis of the deposited data

How the results depend on the processing

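Against 9 ABC members past the threshold, 5 passed after centring on neighbouring genes, 4 of them among the 9 and the other *ABCG1*, and 6 to 8 passed when 1 library was left out. The 5 higher members became 3 without a filter, 3 without the trend and 3 after centring, and 2 to 4 when 1 library was left out, 2 of them without resistant library 8 or 9. Against 4 lower members, 2 were lower after centring, *ABCB8* of the 4 and *ABCG1*, and the number was 4 whichever library was left out. Among named members past the threshold before or after centring, it changed the sign for *ABCB9* (0.0045), *ABCF2* (0.00023), *ABCD4* (-0.063) and *ABCG1* (-0.93), and among those past it in neither for *ABCA2* (0.02), *ABCA3* (0.07) and *ABCB6* (0.18), all on the log2 scale. *ABCB8* and *ABCC8* passed the threshold in all 20 alternatives and *ABCC6* in 11. *ABCG2* entered the test only through the group where it is high, so its p-values are no measure of stability. The genes past the threshold over all genes lay between 4784 and 6228. The median log2 fold change of all genes was 0.00 as deposited, 0.054 with upper quartile scaling and 0.0024 with quantile normalization. With the median transcript length, 50 of 52 levels per kilobase moved by more than their SD. No paired analysis was possible because the parental libraries 1 to 3 and the resistant libraries 7 to 9 share no number and the sources used here do not say which belong together, although the study describes the samples as matched. Depth limits the statements on *ABCG2* and on the 13 members never above 3 reads.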

Other observations

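Solute carriers of drugs and organic ions, most of them carriers of uptake, were also measured. The list also holds antiporters that carry drugs out of cells, such as *SLC47A1*, so its counts mix both directions of transport. Of 20 listed, 12 were tested, with 1 higher and 2 lower in resistant cells, and 7 were never above 3 reads. The share past the threshold was 25%, against 37.7% of all genes tested. *SLCO3A1*, an organic anion carrier, fell from 2157 ± 123 to 1022 ± 40.4 (SD, n = 3), with log2FC -1.08. *SLC19A1*, the reduced folate carrier, rose from 1113 ± 152 to 2354 ± 130 (SD, n = 3), with log2FC 1.09, while its 50 nearest tested genes on chromosome 21 had a median of 1.26. The neighbours of *SLCO3A1* on chromosome 15 had a median of -0.60. *SLCO4A1* fell by 0.50 on the log2 scale. *SLC47A1*, a drug and proton antiporter, had means of 30.4 and 52.2 and did not pass the threshold (limma adjusted p = 0.0867).

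Glutathione conjugates are substrates of the MRP pumps. Of 24 listed genes, mostly of glutathione and thioredoxin metabolism, 22 were tested, with 3 higher and 3 lower. Their median log2 fold change was -0.01. Of those tested, 27.3% passed the threshold, against 37.7% of all genes tested. *GSTP1*, the most abundant transferase of the list, fell from 18064 ± 354 to 9897 ± 747 (SD, n = 3), with log2FC -0.87. *TXNRD1* fell from 11191 ± 1274 to 6157 ± 266 (SD, n = 3). *NQO1*, a quinone reductase outside glutathione and thioredoxin metabolism, rose, with log2FC 1.39 (limma adjusted p = 0.000201). *GSS*, the synthetase of glutathione, had log2FC 0.42 and was also higher.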
